A study of Mus musculus with 12 samples.

Results

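Immediate early genes outside the AP-1 family were followed in mouse airway organoids after focal laser injury. The 10 genes are Egr1, Egr2, Egr3, Ier2, Ier3, Ier5, Klf4, Klf6, Myc and Btg2, taken by gene name from the 55401 genes of the deposited table. Earlier results of these data were known when the genes were chosen. RNA was sequenced in 12 libraries, each from a dish of 45 organoids, 6 after a femtosecond laser had ablated 10 adjacent cells in every organoid and 6 without ablation. All dishes held airway epithelial cells from adult C57BL/6J mice, transduced with a lentivirus in which the p63 promoter drives a Histone2A-mCherry fusion, so the treated and the control dishes carried the same transgene. The culture medium was exchanged for an unsupplemented one before the laser step, and organoids were collected 4.5 h after the laser. Each ablation dish has a control dish of the same number, passage, culture day (14 to 20) and date, which gives 6 pairs numbered 1, 3, 4, 5, 6 and 7. Nothing in the labels says that the dishes came from separate animals, so p-values measure only the spread between these dishes.

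The library numbers form 2 runs, called library set 1 (pairs 1, 3 and 5) and library set 2 (pairs 4, 6 and 7) below. The titles of controls 4, 6 and 7, the controls of set 2, name ablation next to the numbers 4C, 6C and 7C, but their treatment field gives them as untreated controls. The treatment field was followed, and the values of set 1 alone are the result without these libraries. Values are normalized counts, the reads of a gene divided by 1 size factor per library. They summed to 27600452 to 28247162 per library after ablation and 27297950 to 28504390 in controls. Summed airway basal markers, led by Krt5 and Krt14, lay between 478075 and 626871 normalized counts, and summed pan-epithelial markers between 63382 and 76500. Fibroblast markers summed to 17.8 to 48.3 and endothelial markers to 7.05 to 26.3. Immune markers summed to 133 to 222, led by Cd68 with means of 119.5 after ablation and 125.3 in controls. Alveolar type II markers summed to 975 to 1284, led by Abca3 with means of 1125.5 and 1123.7, while Sftpc and Sftpb stayed under 10. The secretory marker Scgb1a1 and the multiciliated markers Dnah5, Ccdc113 and Dynlrb2 stayed under 10 in every library. All 6 multiciliated markers together summed to 32.7 to 67.2, led by Tppp3 with means of 22.9 after ablation and 26.0 in controls. Summed secretory markers lay between 26262 and 78673 after ablation and between 31384 and 66738 in controls. Almost all of that sum was Cyp2f2, with means of 47108 after ablation and 50895 in controls. Scgb3a1, the next most abundant of the list, had means of 82.0 and 93.0. The part of secretory cells in the values below was not tested.

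Immediate early genes are transcribed within minutes of a growth factor, stress or wounding signal without the need for new protein synthesis, and their short-lived mRNAs usually decline again within hours. The signal runs through kinases such as ERK to factors already bound at the promoters, among them serum response factor with its ETS partners. In epithelia these genes encode transcription factors of the EGR and KLF families, MYC, small regulatory proteins of the IER group and the antiproliferative protein BTG2.

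All 10 genes are compact. They spanned 1240 bases (Ier3) to 8913 bases (Klf6) against a median of 20230 bases for the 13792 genes tested, and 28.7% of tested genes span no more than Klf6. Ier2 and Ier5 have 1 exon each. No exon of the 10 genes overlapped an exon of another gene on either strand. RefSeq promoter windows, which follow RefSeq's start sites on build GRCm38.p6, were at hand for 6 of the 10 genes (Egr2, Ier3, Ier5, Klf4, Klf6 and Btg2). The 250 bases before the start are shown 5′ to 3′ on the gene's strand for Ier3, the gene that passed the paired test over all dishes, for the 2 KLF factors, and for Btg2, the one tested member with an estimate below 0 over all dishes. Capitals mark matches, on either strand, to CCAAT, to the GC box GGGCGG, to the cyclic AMP response element TGACGTCA or to the NF-kB site. The Ier3 window is chr17:35821463-35821712 on the plus strand, and its last bases, like those of the Klf6 window, lie within the gene's first exon in GENCODE. The Klf4 window is chr4:55532476-55532725 on the minus strand, the Klf6 window chr13:5861239-5861488 on the plus strand and the Btg2 window chr1:134079156-134079405 on the minus strand.
Ier3: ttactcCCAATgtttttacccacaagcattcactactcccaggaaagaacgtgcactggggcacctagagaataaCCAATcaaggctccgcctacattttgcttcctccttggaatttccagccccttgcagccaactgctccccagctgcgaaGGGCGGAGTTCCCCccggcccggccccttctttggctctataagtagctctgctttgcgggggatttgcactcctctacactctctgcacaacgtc
Klf4: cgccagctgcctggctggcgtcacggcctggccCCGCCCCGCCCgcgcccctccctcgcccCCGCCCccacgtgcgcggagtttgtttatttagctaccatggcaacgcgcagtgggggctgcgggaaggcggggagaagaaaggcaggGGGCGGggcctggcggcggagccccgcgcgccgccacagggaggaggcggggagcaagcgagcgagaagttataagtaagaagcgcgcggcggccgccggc
Klf6: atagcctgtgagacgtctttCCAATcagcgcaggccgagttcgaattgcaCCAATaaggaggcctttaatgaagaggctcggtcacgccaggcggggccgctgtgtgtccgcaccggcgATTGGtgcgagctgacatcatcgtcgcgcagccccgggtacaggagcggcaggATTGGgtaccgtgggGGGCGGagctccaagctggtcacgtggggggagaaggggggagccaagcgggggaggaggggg
Btg2: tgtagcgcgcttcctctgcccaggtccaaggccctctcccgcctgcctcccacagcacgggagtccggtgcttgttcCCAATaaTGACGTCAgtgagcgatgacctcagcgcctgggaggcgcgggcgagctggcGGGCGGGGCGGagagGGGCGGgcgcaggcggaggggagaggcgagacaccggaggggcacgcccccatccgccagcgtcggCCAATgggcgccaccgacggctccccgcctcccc

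The GC box occurred in all 6 windows, and in 32.7% of 32817 RefSeq windows of the same length. CCAAT occurred in 5 of 6 windows, all except that of Klf4, against 33.8% of all windows. The full cyclic AMP response element was found in the Btg2 window alone (1.55% of all windows). The NF-kB site was found in the windows of Egr2 and Ier3 (7.25% of all windows), and in Ier3 it overlaps the GC box. The CArG box, the motif bound by serum response factor, matched only in Egr2 (1.47% of all windows). The AP-1 motif TGANTCA (6.75% of all windows) and the TATA motif TATAAA (12.4%) matched in none of the 6. A match describes letters in the window and says nothing of binding.

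Levels differed widely among the genes in uninjured organoids. Per kilobase of exon, the control mean was highest for Klf4, a factor of differentiating epithelia, with 5871 ± 717 normalized counts per kb (SD, n = 6). Ier2 followed with 2081 ± 428, Myc with 1607 ± 272, Klf6 with 1133 ± 256 and Ier5 with 1075 ± 43.6. Lower on the same scale were Btg2 with 857 ± 93.5, Ier3 with 766 ± 173 and Egr1 with 190 ± 122, and far below them Egr3 with 3.10 ± 2.43 and Egr2 with 0.096 ± 0.148. The control ranges of neighbours in this order overlapped from Ier2 down to Ier3, while Klf4, Egr1, Egr3 and Egr2 did not overlap with their neighbours.

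**Figure D1:**
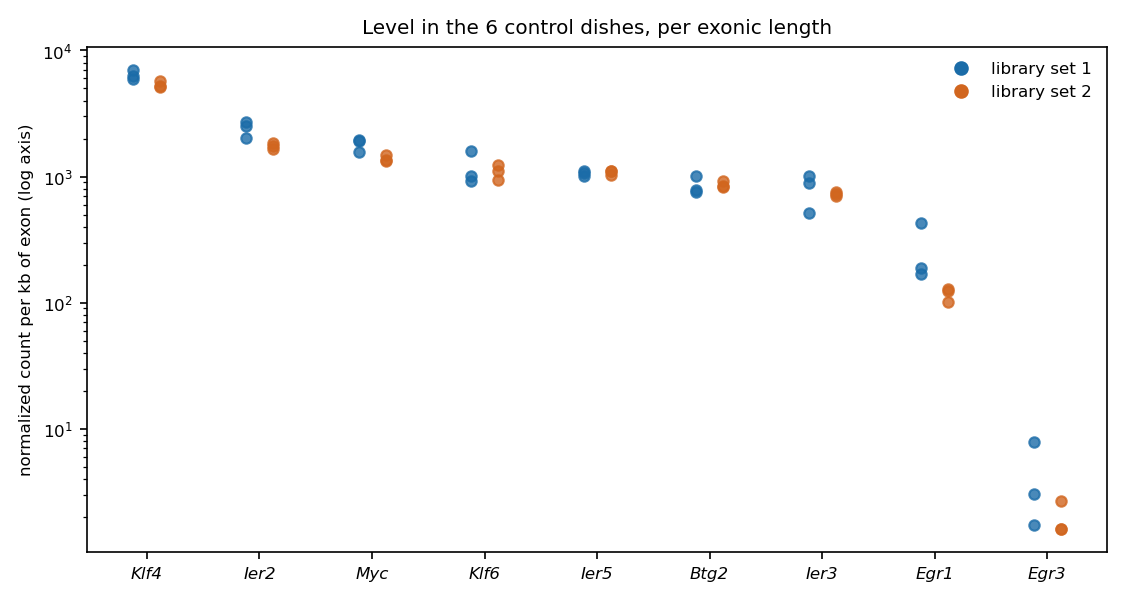
Level of 9 immediate early genes in the 6 control dishes, in normalized counts per kilobase of exon on a log axis, 1 point per dish, colored by library set (Egr2, listed at 0 in 4 of 6 dishes, is left out). Klf4 lies above all other genes in every dish and Egr3 below all other genes shown. The set 2 points of Egr1, Ier2, Klf4 and Myc lie below all of their set 1 points.

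Over all 12 libraries, ablation was followed by small differences in these genes, and Ier3 was the one member that lay above control in every pair. In organoid RNA a lower share of a cell type and less RNA per cell cannot be told apart. In the model with library set as second factor, limma called 0 of the 13792 tested genes at an adjusted p under 0.05, with 1083 genes at an unadjusted p under 0.05. None of the 9 tested members was among either, against a background of 0% called and 7.85% at the unadjusted p. EdgeR on recovered reads of 9 libraries also called 0 genes, with 809 at an unadjusted p under 0.05. The estimates were above 0 for 8 of the 9 tested members and below 0 for Btg2, with a median log2 difference of 0.16 against −0.00 over all tested genes. With the pair as a term (replicate block), limma called 150 genes, 1.09% of those tested (0.674% higher and 0.413% lower), and 1 of the 9 members, Ier3. At an unadjusted p under 0.05 the block gave 17.6% of tested genes and 3 of 9 members, Ier3, Klf6 and Myc. In no member did the 6 ablation values lie apart from the 6 control values, as was the case in 0.247% of tested genes on the higher side and 0.21% on the lower.

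Ier3, a stress-induced regulator of cell survival and ERK signaling, was measured at 675, 1196, 1068, 1354, 1160 and 1089 normalized counts after ablation in pairs 1, 3, 4, 5, 6 and 7. The controls of the same pairs had 581, 1013, 818, 1150, 788 and 851. Ablation was above control in 6 of 6 pairs, while pair 1 was low in both conditions and the groups overlapped. Across all tested genes 5.17% were higher in all 6 pairs and 4.63% lower, and of the other members none had 1 direction in all 6. The log2 fold change of 0.33 had an SE of 0.052 and a limma adjusted p of 0.0127 with the replicate block, and an SE of 0.178 and an adjusted p of 0.690 without it. Without pair 4 the blocked adjusted p was 0.0690, with plain variances (no trend, not robust) it was 0.121 and no gene was called, and with 4 pairs of recovered reads edgeR gave 0.104.

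**Figure D2:**
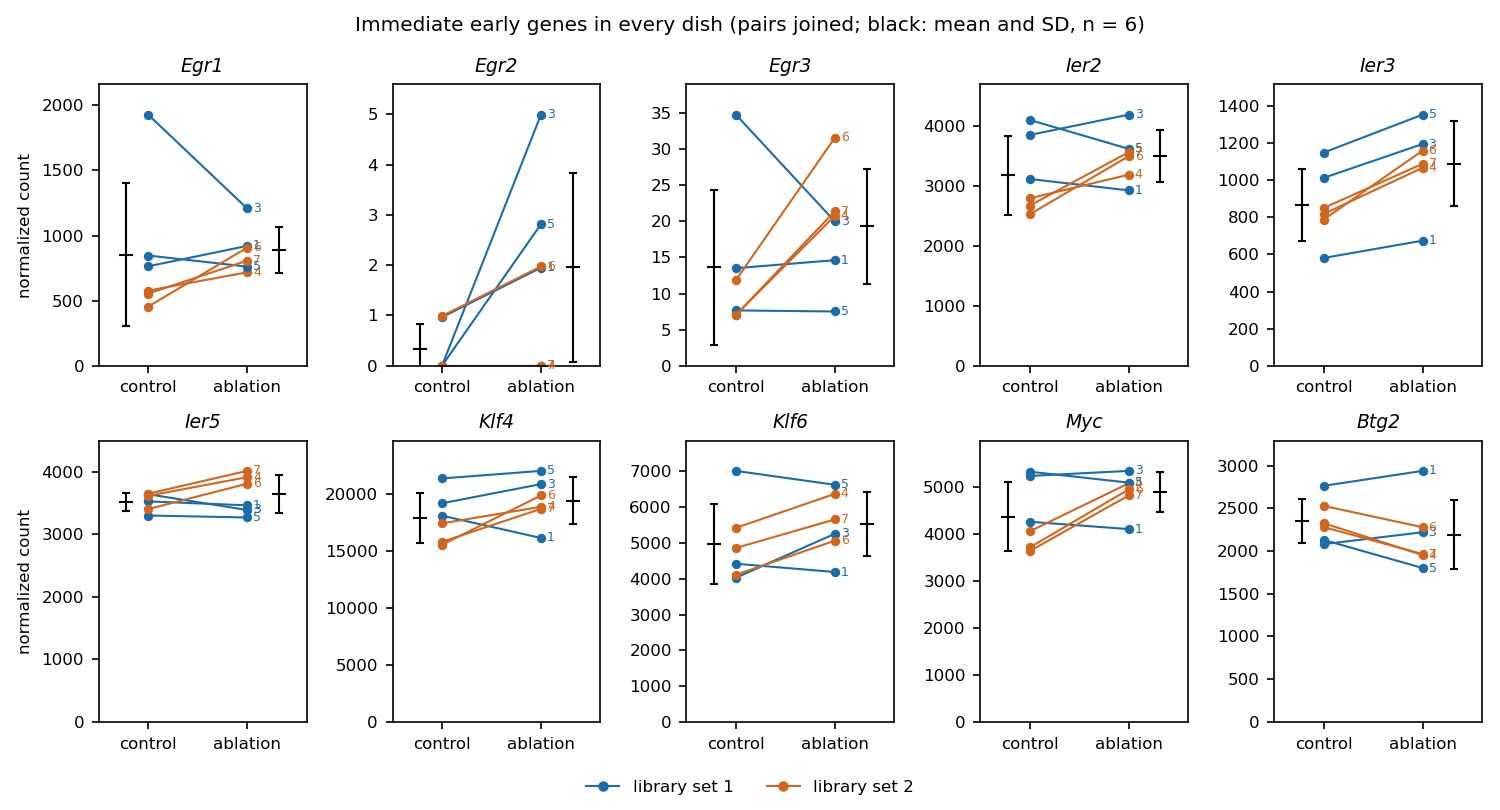
Normalized counts of the 10 immediate early genes in each dish, control on the left and ablation on the right of each panel, with lines joining the dishes of a pair, pair numbers beside the ablation points and colors for the library sets. Black marks give the mean and SD of 6 dishes. Every Ier3 line rises, and for Myc, Ier2, Klf4, Egr1 and Egr3 the lines of set 2 rise while those of set 1 run in both directions.

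The EGR factors are zinc finger proteins of the first transcription wave. Egr1 had 920, 1208, 717, 761, 907 and 807 normalized counts after ablation and 763, 1929, 577, 846, 453 and 554 in controls, in the order of pairs 1, 3, 4, 5, 6 and 7. Control 3 was the highest of all 12 dishes, the 3 controls of set 2 were the lowest, and the groups overlapped. The log2 difference was 0.22 ± 0.23 (SE, n = 6 per group), with a limma adjusted p of 0.843. It was 0.39 without pair 3 (limma adjusted p = 0.652) and 0.060 without pair 6 (0.977). The SD of log2 values of Egr1 in controls was 0.74, larger than that of 98.1% of tested genes, but 0.36 without control 3 (85.9%), and after ablation it was 0.27 (72.6%). For Egr3, a low-abundance relative, the counts were 14.6, 19.98, 20.8, 7.51, 31.6 and 21.4 after ablation and 13.5, 34.8, 7.05, 7.66, 11.9 and 7.01 in controls. Control 3 was again the highest dish, and the remaining controls lay at 13.5 or below. The log2 difference of Egr3 was 0.60 ± 0.40 (SE), with a limma adjusted p of 0.740.

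Egr2 stayed under the minimum for testing. It was listed at 1.95, 5.00, 0, 2.82, 1.97 and 0 normalized counts after ablation in the order of pairs 1, 3, 4, 5, 6 and 7. In controls it was listed at 0.965 in control 1, at 0.988 in control 6 and at 0 in the other 4. It was above 0 in 4 of 6 dishes after ablation and in 2 of 6 controls. Its mean was 1.96 ± 1.88 normalized counts after ablation against 0.325 ± 0.504 without it (SD over 6 dishes each), and the difference of means had p = 0.0736 in a two-sided exact permutation test. That test ignores the pairs, and a two-sided exact sign-flip test of the pair differences gave p = 0.125.

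Among the IER genes, Ier2, a nuclear regulator induced by growth factors, had 2922, 4184, 3184, 3614, 3492 and 3559 normalized counts after ablation and 3111, 3845, 2789, 4095, 2523 and 2669 in controls. Ablation was above control in pairs 3, 4, 6 and 7, and the log2 difference was 0.15 ± 0.10 (SE, limma adjusted p = 0.739). Ier5, a cofactor of heat shock factor signaling, had 3463, 3388, 3913, 3268, 3808 and 4013 after ablation and 3525, 3640, 3614, 3300, 3403 and 3649 in controls. It was the steadiest member, with an SD of 0.059 on the log2 scale in controls, smaller than that of all but 6.69% of tested genes, and a log2 difference of 0.05 ± 0.05 (SE, limma adjusted p = 0.843).

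The KLF factors bind GC-rich promoter elements. Klf4 ranged from 16138 over a median of 19374 to 22028 normalized counts after ablation and from 15542 over 17759 to 21363 in controls, and the highest dish in both groups was that of pair 5. Its log2 difference was 0.12 ± 0.08 (SE, limma adjusted p = 0.739), and ablation was above control in 5 of 6 pairs. Klf6, a factor linked to injury and growth arrest, ranged from 4189 over 5458 to 6626 after ablation and from 4028 over 4640 to 7015 in controls. Its log2 difference was 0.16 ± 0.14 (SE, limma adjusted p = 0.809), with pair 5 highest in both groups and ablation above control in 4 of 6 pairs.

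Myc, the growth and ribosome biogenesis regulator, had 4099, 5337, 5074, 5087, 4944 and 4816 normalized counts after ablation and 4256, 5229, 4052, 5321, 3709 and 3633 in controls. The groups overlapped, with pairs 4, 6 and 7 far apart between conditions and pairs 1, 3 and 5 close together. The log2 difference was 0.18 ± 0.09 (SE, limma adjusted p = 0.670). Btg2, which restrains proliferation and recruits the mRNA deadenylase complex, had 2938, 2220, 1953, 1801, 2279 and 1964 after ablation and 2763, 2080, 2326, 2130, 2529 and 2281 in controls. Ablation lay below control in 4 of 6 pairs, and the log2 difference was −0.11 ± 0.11 (SE, limma adjusted p = 0.825).

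**Figure D3:**
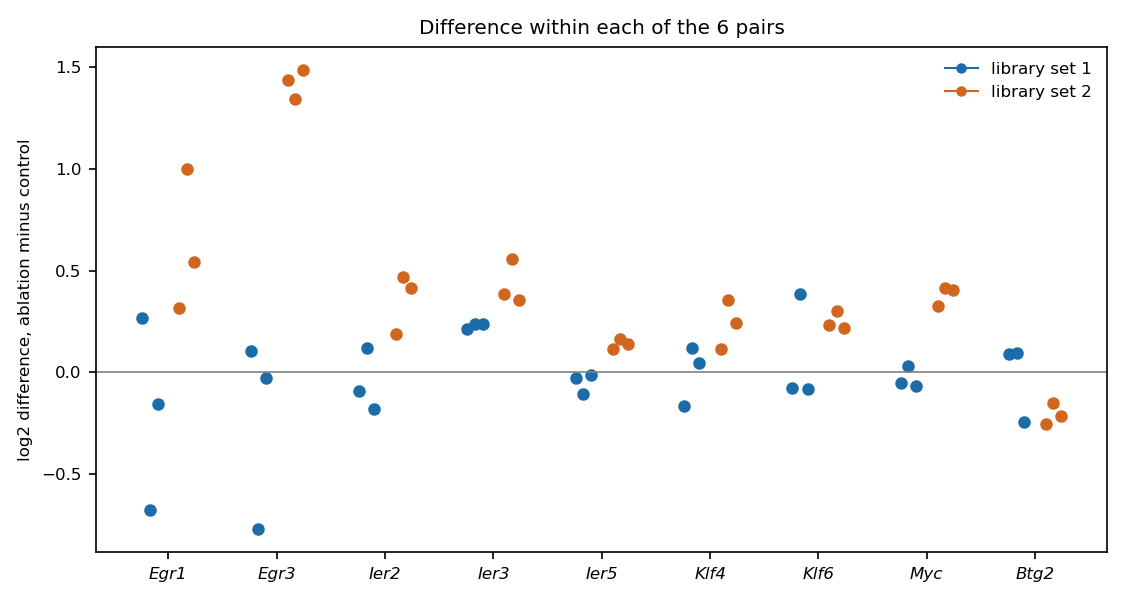
Log2 difference, ablation minus control, within each of the 6 pairs for the 9 members over the count minimum, 1 point per pair. All 3 set 2 points lie above 0 for 8 genes and below 0 for Btg2, while for set 1 all 3 points lie above 0 only for Ier3 and below 0 only for Ier5. Of all tested genes, 17.5% were higher in all 3 pairs of set 2 and 17.9% in all 3 pairs of set 1.

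The response was next estimated within each library set. Within set 2 the median log2 difference of the 9 tested members was 0.36, and within set 1 it was −0.03, where the median of all tested genes was −0.00 in both. In set 2 the 3 ablation values lay above all 3 control values for 7 of 9 members, Egr1, Egr3, Ier2, Ier3, Ier5, Klf4 and Myc, against a background of 7.09% of tested genes. Btg2 lay wholly below (background 7.4%), and Klf6 overlapped although all 3 pairs were higher. In set 1 none of the 9 was separate in either direction, against 4.35% and 3.85% of tested genes. Set 1 holds pairs of culture days 14, 15 and 20 and set 2 pairs of days 14, 18 and 19, so library set, passage and day cannot be fully told apart.

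Within set 2 and with the replicate block, limma called 109 genes (0.79% of those tested), among them Myc, Ier3 and Ier2. The log2 fold change of Myc was 0.38 ± 0.055 (SE, 3 pairs, adjusted p = 0.0158), from 3633 to 4052 normalized counts in controls to 4816 to 5074 after ablation. Ier3 had 0.43 ± 0.071 (adjusted p = 0.0241) and Ier2 0.36 ± 0.066 (adjusted p = 0.0350). Egr3 had the largest estimate, 1.42 ± 0.30 (adjusted p = 0.0582), from 7.01 to 11.9 counts in controls to 20.8 to 31.6 after ablation, and Egr1 had 0.62 ± 0.12 (adjusted p = 0.0540). All 9 members were at an unadjusted p under 0.05, against 13% of tested genes. Without the block limma called 0 genes in set 2, and 8 of 9 members were at an unadjusted p under 0.05, against 7.94%.

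Within set 1 the blocked limma fit called 16 genes (0.116%) and no member, and Ier3 alone was at an unadjusted p under 0.05, with a log2 difference of 0.23 ± 0.062 and an adjusted p of 0.164. Without the block limma called 0 genes in set 1, with 380 (2.76%) and no member at an unadjusted p under 0.05. The estimates for Egr1 (−0.19), Egr3 (−0.23), Ier2 (−0.05), Ier5 (−0.05), Myc (−0.03) and Btg2 (−0.02) were below 0 in set 1.

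**Figure D4:**
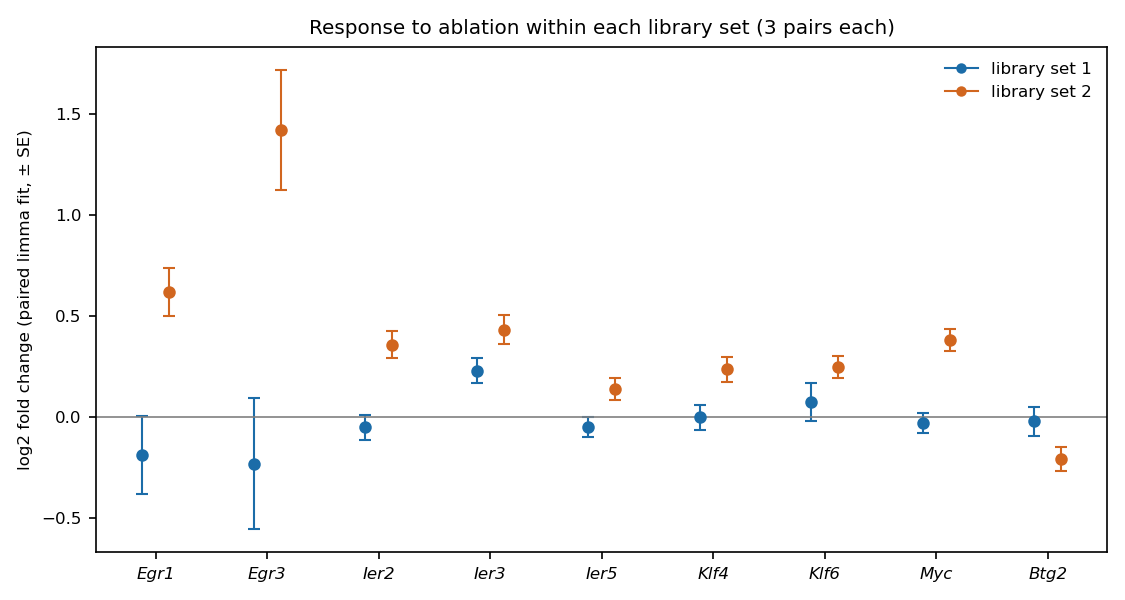
Log2 fold change after ablation, estimated within each library set from 3 pairs by limma with the replicate block, for the 9 members over the count minimum. Points are estimates and bars ± SE. In set 2, Egr3 has the largest estimate (1.42) and Btg2 is the one below 0, and in set 1 only the bars of Ier3 stay clear of 0 on the upper side.

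No member differed between the sets after adjustment. For the test of the difference itself, limma with the replicate block called 1 gene (0.00725% of those tested), which was no member, and without it 0 genes, with 231 at an unadjusted p under 0.05. With the block 7 of 9 members were at an unadjusted p under 0.05, all except Klf6 and Btg2, against 7.88% of tested genes, and without it 4 of 9 against 1.67%. The difference for Myc was 0.41 on the log2 scale with an SE of 0.070 and an adjusted p of 0.218. For Ier2 it was 0.41 ± 0.097 (limma adjusted p = 0.322), and for Egr3 1.65 ± 0.42 (limma adjusted p = 0.389). For Ier3, with positive estimates in both sets, it was 0.20 ± 0.091 (limma adjusted p = 0.630).

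The sets were also compared within each condition, a comparison added after the data were seen. In the 3 controls of set 2, Egr1 had 453 to 577 normalized counts against 763 to 1929 in set 1, and Ier2 2523 to 2789 against 3111 to 4095. Klf4 had 15542 to 17422 against 18096 to 21363, and Myc 3633 to 4052 against 4256 to 5321. These 4 members did not overlap between the sets and were lower in set 2, as were 10.8% of tested genes. Their log2 differences, set 2 minus set 1, were −1.03, −0.46, −0.26 and −0.37, each at an unadjusted p under 0.05 (6.99% of tested genes lower). Limma called 0 genes after adjustment, with 1865 at an unadjusted p under 0.05. After ablation the 4 genes overlapped between the sets. There Egr3 and Ier5 lay wholly higher in set 2 (background 6.04%), no member lay wholly lower (5.95%), and Ier5, at 0.21, was the one member at an unadjusted p under 0.05, against 5.5% of tested genes. Limma called 0 genes there, with 758 at an unadjusted p under 0.05. Because the control values enter both comparisons, the low set 2 controls and the set 2 responses of these genes are not separate results.

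The response was also set against culture day, with pairs 3, 6 and 7 (day 18 or later) as late. The late pairs had the higher estimate for 9 of 9 members, with a median log2 difference of 0.18 against 0.01 over all tested genes. With quantile normalization the estimate was higher for 8 of 9 members. Pairs 6 and 7 also belong to library set 2, so the day comparison and the set comparison are not separate results. With the replicate block 3 members were at an unadjusted p under 0.05, against 5.82% of tested genes. These were Ier2, with a log2 difference of 0.36, Klf6 with 0.28 and Klf4 with 0.24, and limma called 0 genes after adjustment, with 803 at an unadjusted p under 0.05. Without the block 0 genes were called, with 147 (1.07%) and 0 members at an unadjusted p under 0.05. In the controls alone, late against early, limma called 0 genes, and 0 of 9 members were at an unadjusted p under 0.05 against 655 genes (4.75%). The largest estimate among abundant members was that of Klf6, −0.35 ± 0.16 (SE, limma adjusted p = 0.976).

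Several members followed each other across the 12 libraries, which share depth scaling and pairs. Over these libraries Pearson r of log2 values was 0.94 between Ier2 and Myc, 0.92 between Klf4 and Myc and 0.90 between Ier2 and Klf4. Btg2 ran against most of them, with r of −0.87 to Ier3 and −0.70 to Klf6. Ier5 was close to none of the abundant members, with r of 0.01 to Myc and −0.19 to Klf4. Among all tested genes the closest to Egr1 was Nr4a1, an immediate early nuclear receptor, with r of 0.953, followed by D10Wsu102e and N4bp3. The closest to Ier2 were Surf6 (0.942), Myc and Fiz1, and the closest to Myc were Txnrd1 (0.951), Pim3 and Bag5. Klf4 was closest to Grk2 (0.933), Pim3 and Aars, and Klf6 to Pip5k1a (0.954), S100a16 and Cldn4. Ier3 was closest to Zfp719 (0.936), Ppp1r15b and Slc20a1. Ier5 was closest to Stx7 (0.913), Nt5c3 and Rap1b, Egr3 to Guk1 (0.912), Nmt2 and Sap30, and Btg2 to Acad11 (0.955), Ivd and Ucp2.

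The pathway around these genes was described by lists of named genes. Of all 13792 tested genes, 6689 had estimates above 0 and 7103 below. Of the AP-1 genes, which are immediate early partners, 7 of 7 tested had estimates above 0, with a median log2 difference of 0.40 (0.15 in set 1 and 0.60 in set 2). Jun passed the blocked test, with 3969 ± 700 normalized counts after ablation and 3213 ± 629 in controls (SD, n = 6), a log2 fold change of 0.31 and a limma adjusted p of 0.0209, against 0.629 without the block. Of 20 other immediate early genes, 14 had estimates above 0 and 6 below, with a median of 0.08 (−0.01 in set 1 and 0.14 in set 2), and none was called. Dusp1, a phosphatase that switches off MAP kinases, lay above control in 6 of 6 pairs, by 0.27 on the log2 scale, with a blocked limma adjusted p of 0.0626. Of the 16 genes for serum response factor, its partners and upstream kinases, 5 had estimates above 0 and 11 below, and none was called. Srf itself had 1548 ± 76.6 after ablation and 1540 ± 167 in controls.

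Around the EGR factors, the corepressors Nab1 and Nab2 and 4 target genes had 1 estimate above 0 and 5 below, with a median of −0.01 and no call. Nab1 had 5302 ± 299 normalized counts after ablation and 5286 ± 185 in controls (SD, n = 6). Of 20 MYC target genes, mostly of ribosome biogenesis and metabolism, 2 had estimates above 0 and 18 below, with a median of −0.05 (−0.13 in set 1 and 0.01 in set 2) and no call with or without the block. Npm1 and Ncl, the most abundant of them, had log2 differences of −0.07 and −0.05. At an unadjusted p under 0.05 in the blocked limma fit, 6 of the 20 targets were lower and 0 higher. Among the 13792 tested genes 1222 were lower and 1211 higher at that level. The 11 tested MYC network partners, 4 above 0 and 7 below, and the 4 cell cycle inhibitors that MYC represses, 2 above and 2 below, held no call either.

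Among 11 KLF relatives 2 passed the blocked test, in opposite directions. Klf10, induced by TGF-beta, was higher in 6 of 6 pairs, with 2390 ± 315 normalized counts after ablation and 2045 ± 215 in controls (SD, n = 6) and a log2 fold change of 0.22 (limma adjusted p = 0.0352, and 0.619 without the block). Klf15, a glucocorticoid-responsive factor, was lower in 6 of 6 pairs, with 59.8 ± 34.5 against 107 ± 48.9 and a log2 fold change of −0.89 (limma adjusted p = 0.0120, and 0.619 without the block). Of 6 genes for decay of AU-rich mRNAs, 3 had estimates above 0 and 3 below. Of 8 deadenylase genes linked to BTG2, 3 lay above 0 and 5 below, and of 5 tested relatives of the IER, BTG and EGR genes 1 above and 4 below, with no call in these lists. Trp63, the basal factor whose promoter drives the transgene, passed the blocked test, with 9844 ± 1141 after ablation and 7505 ± 917 in controls (log2 fold change 0.39, limma adjusted p = 0.0082, and 0.187 without the block). Of the 8 basal markers, Trp63 among them, 4 had estimates above 0 and 4 below. Of 6 pan-epithelial markers 4 had estimates above 0 and 2 below. Sox2 was counted in this list, although the paper names it with Trp63 as a factor in maintaining airway basal cells. Sox2 passed the blocked test, lower in 6 of 6 pairs (log2 fold change −0.17, limma adjusted p = 0.0488, and 0.642 without the block).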

How the data were processed

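Poly(A)-selected, stranded libraries were sequenced in pairs of reads. The authors processed reads with nf-core/rnaseq and the GENCODE annotation on GRCm38.p6 and ran DESeq2 with condition and batch. The signal values used here are normalized counts as deposited, which the authors made by dividing the counts of each library by a DESeq2 size factor. The deposited log2 fold changes, score columns (standard errors and Wald statistics) and p-values are the authors' own comparison and were not used. Groups follow the treatment label. The methods do not name the batch, and the library set, read from library numbers, was taken in its place. For 9 libraries the step between values gave back whole reads (100.0% of values whole), 27954695 to 29489553 in 4 ablation and 23631212 to 29775699 in 5 control libraries. The steps of ablation 3 (0.999), ablation 4 (0.990) and control 4 (1.007) lay nearest to 1. Their reads were not taken as recovered, although 100.0% of their values were also whole, so edgeR used 9 libraries only.

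A gene entered the tests if 6 or more libraries had 10 or more normalized counts of it (13792 of 55401 genes). Log2 values with a pseudocount of 1 were fitted with limma 3.58.1 (R 4.3.3), with trended and robust variances, for condition and library set. P-values were adjusted over all tested genes after Benjamini and Hochberg, and 0.05 was the threshold. Genes with at most a few reads were compared by exact permutation and, over the pairs, by exact sign flips. The replicate block uses the pair in place of the set. Same-numbered samples share passage, culture day and date, so the numbers were taken to pair the samples. Their deviations from group means correlated across genes in every pair (0.618, 0.493, 0.205, 0.317, 0.381 and 0.332 for pairs 1, 3, 4, 5, 6 and 7). For ablation 4 a control of another number had a higher r (0.286), while in the other pairs the same-numbered control had the highest. Library set was not removed here, so a shared set can add to these values. EdgeR 4.0.16 quasi-likelihood tests were run on recovered reads. The limma fits for ablation, for its difference between sets or culture days, and for culture day in controls were tried on simulated data. So were the edgeR fits. The exact tests, the set comparisons within a condition and the fits within 1 set were not. All 10 members are named. Of the lists, genes past the threshold of either fit and up to 4 of the most abundant are named, and for each tested member the 3 genes of highest Pearson r over the 12 libraries. Dusp1, Srf and Nab2 were named after their values were seen, as was Trp63. The members, lists and tests were chosen with earlier results of these data known. Motifs were searched in RefSeq windows in Python 3. Alternatives were other pseudocounts and filters, plain variances, quantile normalization, the block, edgeR, single library sets and leaving out each replicate.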

Additional observations from a re-analysis of the deposited data

Results flagged for a closer look

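Control 3 stood apart from the other controls in 2 of the 20 combinations of gene and group examined by Dixon's test, which by chance marks about 1 in 20 groups. The test used normalized counts and was not run on log2 values. Both flags fell on 1 dish, and Egr1 and Egr3 had a Pearson r of 0.67 over the 12 libraries, so they are not separate results. Egr1 had 1929 normalized counts in control 3, and the gap to the next control was 0.734 of the group's range. Egr3 had 34.8 normalized counts in control 3, with a gap of 0.766 of the range. In ablation 3, of the same pair, Egr1 had 1208 and Egr3 19.98 normalized counts.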

How the results depend on the processing

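For ablation against control, the estimates of the 9 tested members kept their direction under every alternative over all libraries. Leaving out pair 6 moved Egr1 to 0.060, Ier2 to 0.091, Klf4 to 0.072 and Ier5 to 0.022. Within library set 1 alone 5 of them reversed, with or without the replicate block, to −0.19 for Egr1, −0.23 for Egr3, −0.050 for Ier2, −0.048 for Ier5 and −0.030 for Myc. The count of genes called moved from 0 to 3 without the filter on low counts. With the replicate block, the pairing of same-numbered dishes, it was 150, with a pseudocount of 0.5 also 150, with a pseudocount of 5 it was 158, without the filter 356 and with quantile normalization 168. Plain variances with the block gave 0 genes, with 2190 at an unadjusted p under 0.05, and a limma adjusted p of 0.121 for Ier3. Leaving out each pair in turn under the block gave 176, 90, 8, 77, 106 and 140 genes without pairs 1, 3, 4, 5, 6 and 7, and Ier3 as the 1 member called except without pair 4, where none was. The block gave 16 genes in set 1 and 109 in set 2, with 3 members called in set 2, and edgeR with the block on 4 pairs, added after seeing the data, 3 genes. For the difference between library sets the block gave 1 gene, and leaving out each pair 0 to 7. In the set comparisons added later, leaving out 1 library gave 0 to 2 genes after ablation (2 without ablation 1) and 0 to 3 in controls (3 without control 5). The block changed no other call of a member. Of the late against early comparison, 43 genes were called without the filter.

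Directions in the comparisons of culture day and of library sets often rested on 1 dish. Late against early in controls, leaving out each control gave −0.14 to 0.35 for Ier3, −0.15 to 0.041 for Btg2, −0.52 to 0.52 for Egr1, −0.34 to 0.0060 for Ier2 and −0.0031 to 0.068 for Ier5, and the 6 ablation libraries gave 0.21 for Ier2, 0.070 for Klf4 and 0.088 for Myc. Set 2 against set 1 after ablation, the ranges were −0.20 to 0.30 for Ier3, −0.057 to 0.27 for Klf6, −0.076 to 0.11 for Myc, −0.31 to 0.043 for Btg2, −0.19 to 0.069 for Ier2 and −0.16 to 0.061 for Klf4. In controls they were −0.40 to 0.093 for Ier3, −0.030 to 0.17 for Btg2, −0.012 to 0.059 for Ier5 and −0.22 to 0.18 for Klf6. With quantile normalization the day difference of Ier5 was −0.0051. The cause of these shifts was not tested. At 0 to 5.00 normalized counts, Egr2 was too low for a test across genes.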
